A study of Mus musculus with 2 samples.

Results

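A set of 10 surface receptor genes of myeloid cells, of the 29217 genes measured, were followed through the myeloid cells of 2 mouse brain libraries: Clec4a1, Clec4b1, Clec4d, Clec4e, Clec4n, Clec7a, Clec10a, Clec12a, Mrc1 and Cd163. They were chosen by symbol as C-type lectin receptors, and all 10 were in the gene lists of both libraries. Cd163 is not a C-type lectin but a scavenger receptor of the cysteine-rich family, and is described here beside Mrc1 because both are used as macrophage markers. The libraries were made from brain tissue of Balb/c mice in a model of breast cancer spread to the brain, with 4T1 cells, a triple-negative mouse mammary carcinoma line. One library is titled positive and the other titled control, with 1 library in each group and no age, sex or number of animals given. The treatment field goes against the titles: it gives the titled positive library as without 4T1 metastasis and the titled control library as with it. Groups are therefore named by title, and no difference between them is read as an effect of metastasis. With 1 library per group no test between libraries was possible, and every interval below covers counting error only.

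C-type lectin receptors bind sugars and other ligands on microbes, on dying cells and on tumour cells. Clec4d, Clec4e, Clec4n and Clec4b1 pair with the Fc receptor gamma chain, which carries an activating tyrosine motif and signals through the kinase Syk and the adaptor Card9 to cytokine genes. Clec7a reaches Syk through a motif in its own tail, while Clec12a carries an inhibitory motif. Mrc1, Clec10a and Cd163 are best known as uptake receptors. In the healthy brain Mrc1 and Cd163 mark the macrophages of the meninges, choroid plexus and vessel walls, called border macrophages, and not the microglia of the tissue itself.

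The titled positive library held 10842 barcodes with a median of 7383.5 UMIs (unique molecular identifiers, one per captured transcript), and the titled control library held 10417 barcodes with a median of 4230 UMIs. The libraries shared 149 barcode sequences. Carcinoma-like cells numbered 5896 in the titled positive library and 1 in the titled control library. Classes were named from markers that hold no receptor of the set, and the receptors were left out of the genes clustered. This gave 580 microglia-like cells in the titled positive library and 2091 in the titled control library. Monocyte-like cells numbered 995 in the titled positive library and 75 in the titled control library, and dendritic cell-like cells 96 in the titled positive library and 61 in the titled control library. Tumour macrophage-like cells (1093) and neutrophil-like cells (152) were named in the titled positive library alone, and border macrophage-like cells (243) in the titled control library alone. Another 329 cells of the titled positive library and 367 of the titled control library fell into myeloid clusters that stayed unnamed. In each of the 9 named class sums all markers of the class's own list held UMIs, and median UMIs per cell went from 3212 to 6404.

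Levels are pooled CPM, the UMIs of a gene per 1000000 UMIs summed over all cells of a class, with exact Poisson 95% intervals. All 10 receptors together reached 1875 CPM in titled positive monocyte-like cells, 1893 CPM in titled control monocyte-like cells, 1861 CPM in tumour macrophage-like cells and 1679 CPM in border macrophage-like cells. The dendritic cell-like sums were 908 CPM in the titled positive library and 1491 CPM in the titled control library, and neutrophil-like cells had 505 CPM. Microglia-like cells were the lowest, with 254 CPM in the titled positive library and 61.0 CPM in the titled control library. With each cell thinned to 1000 UMIs, 76.2% of titled positive monocyte-like cells and 84.0% of titled control ones held a UMI of at least 1 receptor, against 19.0% of titled positive and 4.64% of titled control microglia-like cells.

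**Figure D1:**
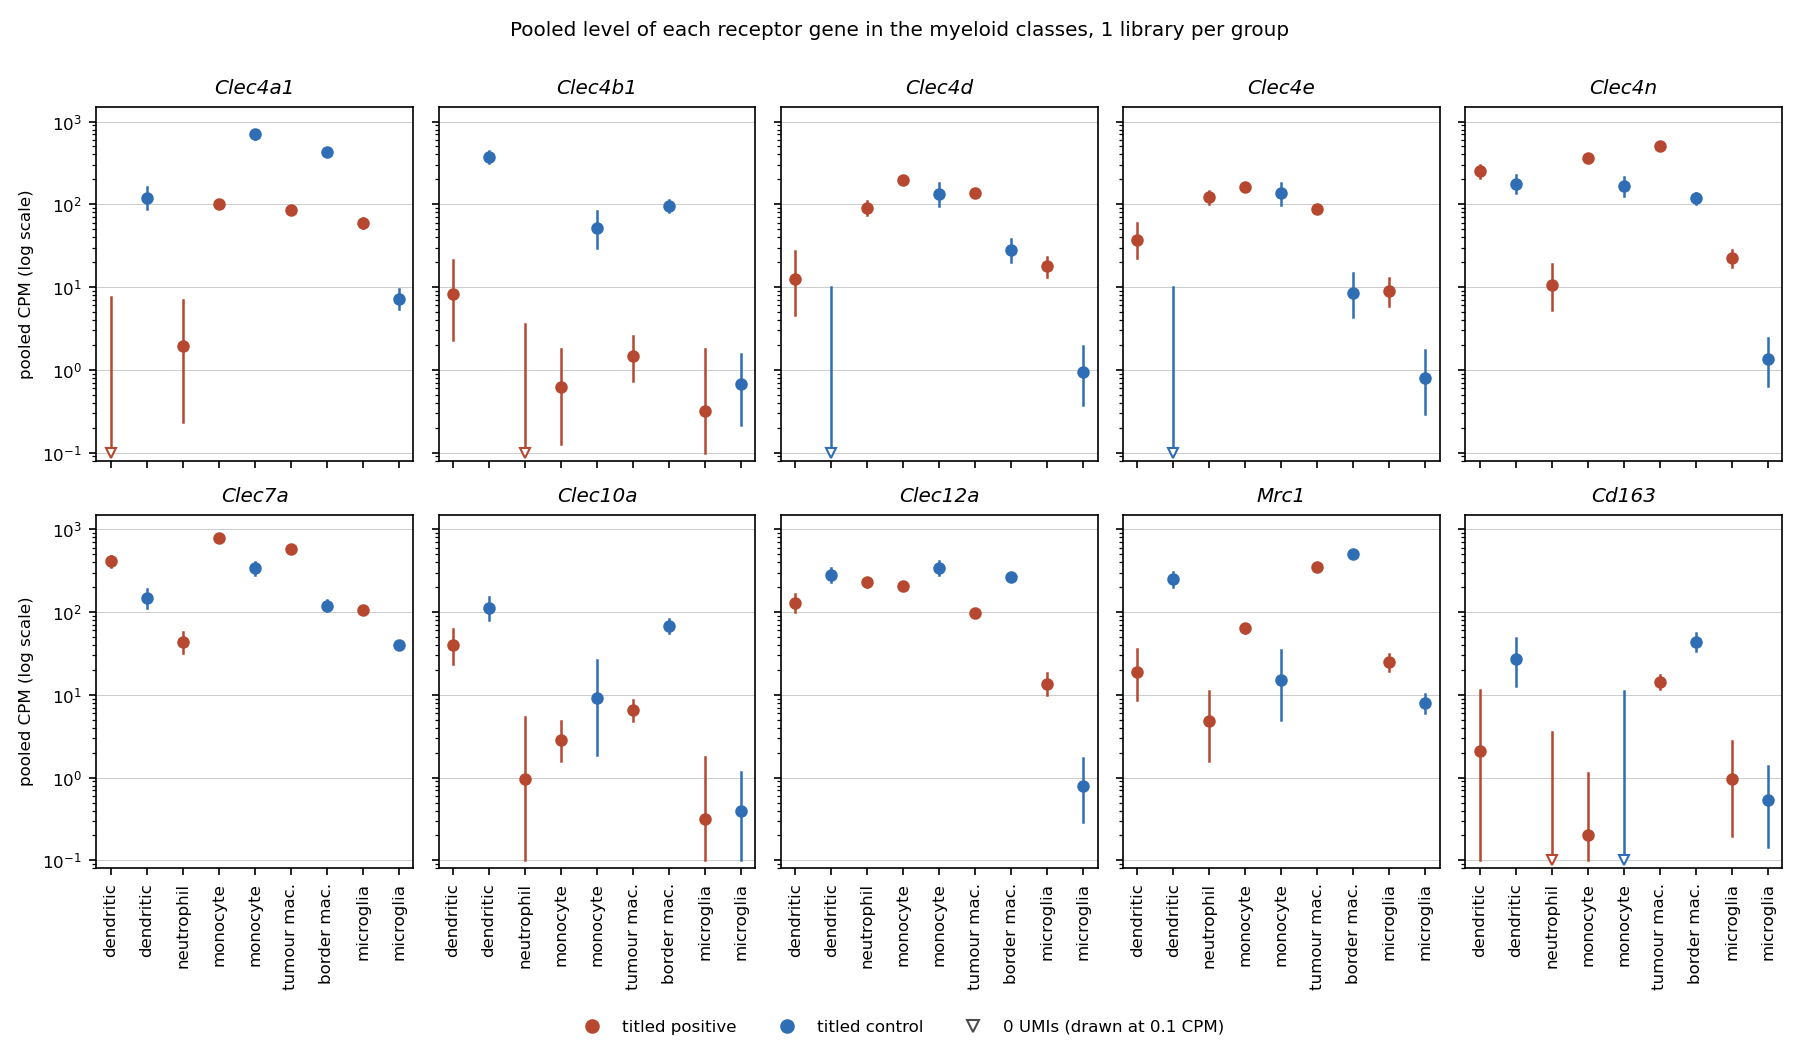
Pooled CPM (log axis) of each receptor gene, 1 panel per gene, in the 6 myeloid classes of the titled positive (red) and titled control (blue) libraries; points are class sums, bars exact Poisson 95% intervals, and open triangles class sums with 0 UMIs. Clec4b1 divides by library, and in dendritic cell-like cells stands at 8.33 CPM in the titled positive and 372 CPM in the titled control library.

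Clec4e, known as Mincle, binds a glycolipid of mycobacteria and a protein released by dead cells, and Clec4d is its partner receptor. Clec4d had 197 CPM (185 to 210) in titled positive and 133 CPM (96.7 to 179) in titled control monocyte-like cells, 90.6 CPM (73.3 to 111) in neutrophil-like cells and 137 CPM (129 to 146) in tumour macrophage-like cells. Clec4e had 163 CPM (152 to 175) in titled positive monocyte-like cells, 136 CPM (99.3 to 182) in titled control monocyte-like cells, 122 CPM (102 to 146) in neutrophil-like cells and 86.9 CPM (80.4 to 93.8) in tumour macrophage-like cells. Within each library both genes were thus highest in monocyte-like cells, and the intervals of Clec4e in the 3 leading sums overlapped from one to the next. Titled positive dendritic cell-like cells had 37.5 CPM (22.2 to 59.2) of Clec4e. Their 12.5 CPM (4.58 to 27.2) of Clec4d rested on 6 UMIs and lay within the 17.5 CPM of endothelial-like, 15.1 CPM of T or NK cell-like and 19.7 CPM of fibroblast-like cells of that library, so it is read as background. Titled control dendritic cell-like cells held 0 UMIs of either gene, which allows up to 8.03 CPM. Across 23 class sums of at least 50 cells, the log2 levels of Clec4d and Clec4e had the highest correlation of any pair of receptors (Pearson r = 0.95), as a description over sums that share 2 libraries. The gene with the most similar pattern to Clec4d outside the receptors and cell type markers was Ms4a8a (r = 0.95 over the same 23 sums) and that to Clec4e was Hp, which encodes haptoglobin (r = 0.96). Clec4d and Clec4e are neighbours on chromosome 6 of GRCm38, at chr6:123262111-123275265 on the plus strand and chr6:123281789-123289870 on the minus strand, 6523 bp apart.

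The 250 bases before the RefSeq start (GRCm38.p6) of these neighbours are shown because both genes had alike levels from class to class. Capitals mark TTGCNNAA on either strand, letters bound by the C/EBP family, which is active in monocytes and neutrophils. That motif was in 9.55% of 27025 promoter windows of the same length.
Clec4d, chr6:123261857-123262106, plus strand: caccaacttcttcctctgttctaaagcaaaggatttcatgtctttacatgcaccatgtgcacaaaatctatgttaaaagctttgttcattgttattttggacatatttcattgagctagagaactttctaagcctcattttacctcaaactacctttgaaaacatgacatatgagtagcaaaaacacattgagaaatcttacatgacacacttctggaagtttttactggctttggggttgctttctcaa
Clec4e, chr6:123289872-123290121, minus strand: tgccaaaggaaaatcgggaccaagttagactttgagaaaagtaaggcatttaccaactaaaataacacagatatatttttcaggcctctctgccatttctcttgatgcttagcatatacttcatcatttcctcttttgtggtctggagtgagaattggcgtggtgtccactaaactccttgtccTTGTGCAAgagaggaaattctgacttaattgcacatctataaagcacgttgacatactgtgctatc
The Clec4e window held 1 match, on the opposite strand to the gene, starting 66 bases before its start site, and the Clec4d window held none. The letters GAGGAAGT, a core bound by PU.1 and present in 2.44% of windows, were in neither. TGANTCA, a loose form of the AP-1 site with its middle letter left open, was present in 6.87% of windows and also in neither. RefSeq windows were found for 8 of the 10 receptors, and 2 of these 8 held any of the 3 motifs. A match describes letters only.

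Clec4n, known as dectin-2, binds mannose-rich sugars. It had 249.9 CPM (207 to 299) in titled positive and 177 CPM (137 to 225) in titled control dendritic cell-like cells, and 360.1 CPM (343 to 377) in titled positive and 166 CPM (125 to 216) in titled control monocyte-like cells. Neutrophil-like cells, with their 90.6 CPM of Clec4d and 122 CPM of Clec4e, had 10.6 CPM (5.30 to 19.0) of Clec4n. Its highest level was the 505 CPM (489 to 521) of tumour macrophage-like cells, 75.0% of which held a UMI, and border macrophage-like cells had 118 CPM (101 to 138). The intervals of titled positive and titled control dendritic cell-like cells overlapped, and the 505 CPM stood clear of every other sum. At 1000 UMIs per cell the neutrophil-like share was 0.658%, below the 2.94% of endothelial-like cells of the same library, and is read as background. The gene most like Clec4n across the 23 sums was Gm6377 (r = 0.94). Clec4n lies 15089 bp before Clec4d on the same strand, at chr6:123229843-123247021.

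Clec7a, known as dectin-1, binds beta-glucan of fungal walls. It had 410.2 CPM (355 to 472) in titled positive and 147 CPM (111 to 192) in titled control dendritic cell-like cells, and 779 CPM (754 to 804), its highest level, in titled positive and 339 CPM (279 to 407) in titled control monocyte-like cells. Neutrophil-like cells had 43.4 CPM (31.7 to 58.1), which overlapped the 36.3 CPM (28.7 to 45.2) of T or NK cell-like cells of that library, tumour macrophage-like cells 579 CPM (562 to 596) and border macrophage-like cells 119.8 CPM (103 to 139). The 2 highest sums, both of the titled positive library, stood clear of the rest, and the intervals of the third and the fourth, titled positive dendritic cell-like and titled control monocyte-like cells, overlapped. Titled control microglia-like cells had 40.4 CPM (36.0 to 45.2), and a UMI in 2.87% of cells at 1000 UMIs per cell, against up to 0.228% in endothelial-like and oligodendrocyte-like cells of that library. They were unequal among themselves: the cluster m0 of 944 cells, led by Ccl4, Ccl12 and Atf3, had 81.6 CPM of Clec7a, and the cluster m2 of 1128 cells, led by P2ry12, Crybb1 and Tmem119, had 7.12 CPM. With finer clusters, 1 cluster of 429 cells of that library had 151 CPM of Clec7a while holding 2.46 CPM of Clec4n. The genes most like Clec7a across the 23 sums were the chemokine Ccl6 (r = 0.94), Ms4a6d (r = 0.93) and the cytokine Il1b (r = 0.93). The gene annotation lists Clec7a (chr6:129461591-129472779, minus strand) as a polymorphic pseudogene, and UMIs were counted for it in both libraries.

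Clec12a dampens myeloid activation and binds uric acid crystals. It had 129 CPM (99.0 to 165) in titled positive and 284 CPM (232 to 343) in titled control dendritic cell-like cells, 230.5 CPM (202 to 262) in neutrophil-like cells, 208 CPM (196 to 222) in titled positive and 345 CPM (284 to 414) in titled control monocyte-like cells, and 266 CPM (240 to 294) in border macrophage-like cells. Ordered by level, the 5 sums from 345 to 208 CPM each had an interval that overlapped the next. A UMI of Clec12a was in 61.8% of neutrophil-like cells, and tumour macrophage-like cells had 97.2 CPM (90.3 to 104). The gene most like it across the 23 sums was Wfdc17 (r = 0.94). Clec12a (chr6:129342691-129365303, plus strand) lies 96287 bp from Clec7a on the opposite strand. Its RefSeq start falls inside that span, and the window before it was the only one of the 8 with more than 1 kind of motif. Capitals mark TGANTCA and TTGCNNAA in the 250 bases before that start:
Clec12a, chr6:129349994-129350243, plus strand: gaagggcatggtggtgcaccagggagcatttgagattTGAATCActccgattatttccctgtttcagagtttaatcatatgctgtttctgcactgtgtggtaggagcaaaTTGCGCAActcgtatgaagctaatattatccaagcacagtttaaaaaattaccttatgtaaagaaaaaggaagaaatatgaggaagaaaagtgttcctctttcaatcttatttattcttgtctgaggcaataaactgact
The TGANTCA match, with A as the open middle letter, stood 213 bases before the start. The TTGCNNAA match, which reads alike on both strands, stood 140 bases before it.

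Clec4a1 belongs to the group of the dendritic cell immunoreceptors. In the titled positive library it had 0 UMIs in 96 dendritic cell-like cells, which allows up to 6.25 CPM, 101 CPM (92.0 to 110) in monocyte-like cells, 85.4 CPM (79.0 to 92.3) in tumour macrophage-like cells and 59.8 CPM (51.6 to 69.0) in microglia-like cells. In the titled control library it had 120.5 CPM (87.9 to 161) in dendritic cell-like cells, 698 CPM (611 to 795) in monocyte-like cells, 88.0% of which held a UMI, and 433 CPM (399 to 468) in border macrophage-like cells. The last 2 stood clear of every other sum, while the interval of titled control dendritic cell-like cells overlapped that of titled positive monocyte-like cells. Clec4b1, of the related group of immunoactivating receptors, had 8.33 CPM (2.27 to 21.3) in dendritic cell-like cells, 0.614 CPM in monocyte-like cells, 0 UMIs in neutrophil-like cells and 1.45 CPM (0.724 to 2.59) in tumour macrophage-like cells of the titled positive library. The 3 titled control sums stood clear above these, with 372 CPM (313 to 439) in dendritic cell-like cells, 51.4 CPM (29.9 to 82.3) in monocyte-like cells and 95.4 CPM (80.1 to 113) in border macrophage-like cells, and the intervals of the last 2 overlapped. Clec4a1 (chr6:122921848-122934619) and Clec4b1 (chr6:123049962-123071555) lie 115342 bp apart on the plus strand in the same cluster of genes as Clec4n, Clec4d and Clec4e. The genes most like them across the 23 sums were Gm36161 for Clec4a1 (r = 0.87) and Tnip3 for Clec4b1 (r = 0.84). Their family holds the related genes Clec4a2, Clec4a3, Clec4a4 and Clec4b2. Whether likeness of sequence moved or lost UMIs among these genes was not tested.

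Mrc1, the mannose receptor, had 18.7 CPM (8.57 to 35.6) in titled positive and 252 CPM (203 to 308) in titled control dendritic cell-like cells, and 63.4 CPM (56.6 to 70.9) in titled positive and 15.1 CPM (4.91 to 35.3) in titled control monocyte-like cells. The 18.7 CPM overlapped the 18.4 CPM (13.1 to 25.0) of titled positive T or NK cell-like cells, so it was not clear of background. Tumour macrophage-like cells had 349 CPM (335 to 362) and border macrophage-like cells 498 CPM (462 to 536), the highest level, and both stood clear of every other sum. Cd163, which takes up haemoglobin bound to haptoglobin, had 2.08 CPM (1 UMI) in titled positive and 26.8 CPM (12.8 to 49.2) in titled control dendritic cell-like cells, 14.5 CPM (11.9 to 17.5) in tumour macrophage-like cells and 43.9 CPM (33.7 to 56.1) in border macrophage-like cells. It rested on 3 UMIs in titled positive and 4 UMIs in titled control microglia-like cells and on 1 UMI in titled positive monocyte-like cells. No UMI was counted in neutrophil-like cells, which allows up to 2.89 CPM, or in titled control monocyte-like cells, which allows up to 9.07 CPM. Clec10a, which binds galactose and its N-acetylated form, had 39.6 CPM (23.8 to 61.8) in titled positive dendritic cell-like cells and 112 CPM (81.0 to 152) in titled control ones, 68.3 CPM (55.4 to 83.2) in border macrophage-like cells and 6.59 CPM (4.89 to 8.69) in tumour macrophage-like cells. The genes most like these 3 were Ms4a7 for Mrc1 (r = 0.87), Fcna for Cd163 (r = 0.80) and Mgl2, the close homologue of Clec10a, for Clec10a (r = 0.89). Mrc1 spans chr2:14229392-14332057 and overlaps the microRNA gene Mir511 on the same strand, Clec10a lies at chr11:70156197-70170834, and Cd163 at chr6:124304656-124330527.

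**Figure D2:**
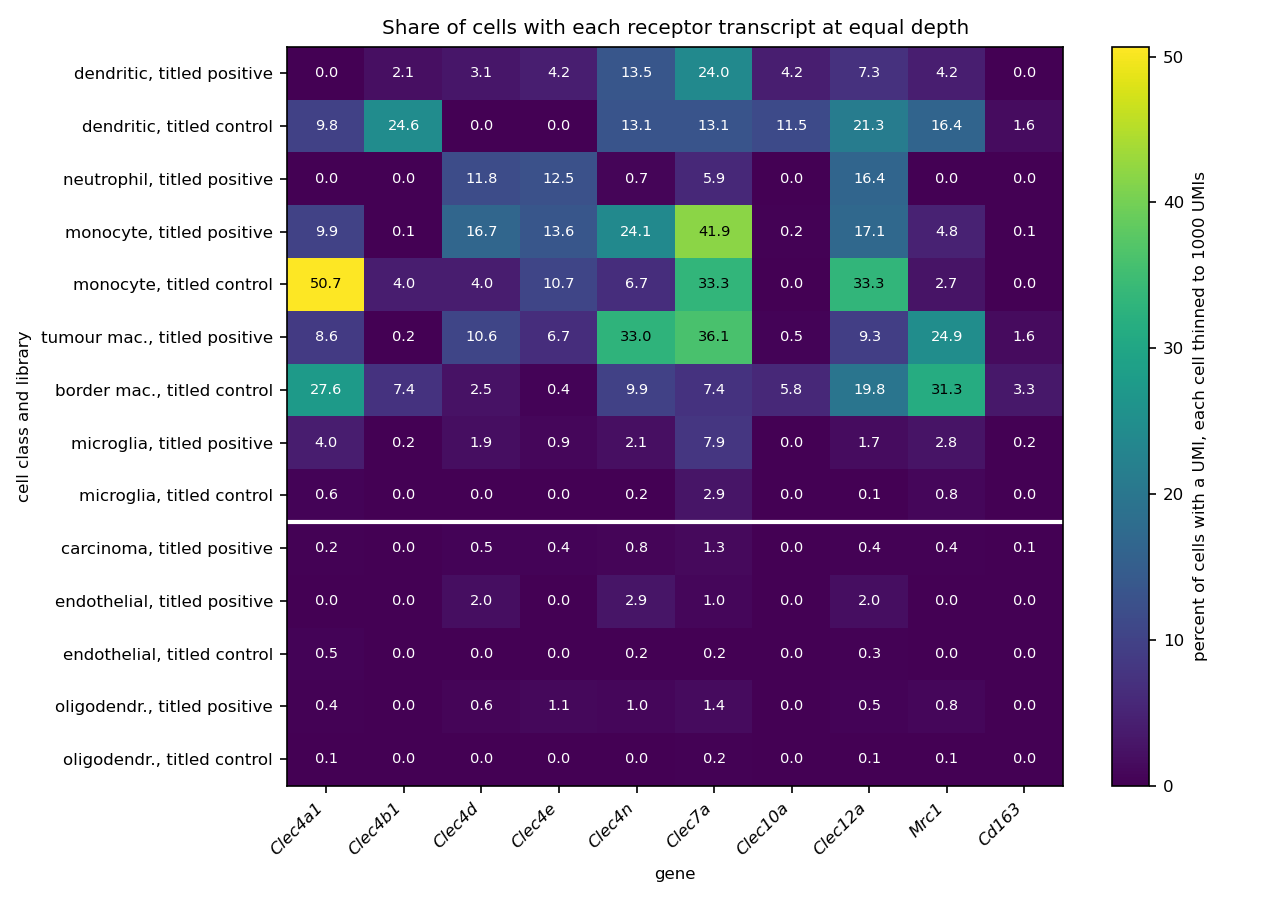
Percent of cells with a UMI of each receptor gene after every cell was thinned to 1000 UMIs, by class and library; rows under the white line are carcinoma-like, endothelial-like and oligodendrocyte-like cells. The brightest field is Clec4a1 in titled control monocyte-like cells, at 50.7%.

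Within the titled control library, border macrophage-like cells were set against microglia-like cells to ask how the receptors divide between these resident classes. A member was counted where both sums together held at least 20 UMIs, and called where it differed at least 2-fold with a counting interval clear of no difference. A member high in 1 class alone can pass that minimum only through it, so the counts describe and support nothing further. Of 9 receptors counted, 9 were called higher in border macrophage-like cells, against 9.25% of 11834 genes, and 0 lower, against 9.66%. The log2 ratios went from 1.57 (1.29 to 1.84) for Clec7a to 8.26 (7.24 to 9.83) for Clec12a. Mrc1 had 498 CPM in border macrophage-like and 7.87 CPM in microglia-like cells, a log2 ratio of 5.97 (5.60 to 6.39). Clec4e, with 12 UMIs in border macrophage-like and 6 UMIs in microglia-like cells, was not counted. The border class was not of 1 kind. With finer clusters, 122 of its 243 cells fell into a border macrophage-like cluster of 123 cells, with 1093 CPM of Mrc1, 217 CPM of Clec4b1, 160.5 CPM of Clec10a and 102 CPM of Cd163. Another 120 of its cells fell into a cluster of 124 cells then named microglia-like, which had 342 CPM of Clec4a1, 149.5 CPM of Clec12a, 32.3 CPM of Mrc1 and 0 UMIs of Cd163. The microglia markers summed to 3569 CPM in border macrophage-like and 16340 CPM in microglia-like cells, and oligodendrocyte markers to 3203 CPM in border macrophage-like and 3877 CPM in microglia-like cells; their part in the ratios was not tested.

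In the titled positive library, 8 of 9 receptors counted were called higher in tumour macrophage-like than in microglia-like cells, against 5.85% of 11355 genes, and 0 lower, against 5.63%. Clec4n had 505 CPM in tumour macrophage-like and 22.5 CPM in microglia-like cells, a log2 ratio of 4.48 (4.15 to 4.85). Mrc1 had 349 CPM in tumour macrophage-like and 24.7 CPM in microglia-like cells, a log2 ratio of 3.81 (3.50 to 4.16). Clec4a1 was the exception, with 85.4 CPM in tumour macrophage-like and 59.8 CPM in microglia-like cells, a log2 ratio of 0.51 (0.28 to 0.76). The 2 clusters of tumour macrophage-like cells differed in Clec4d: 249.5 CPM in the 203 cells led by Ccl24 and Arg1, and 111 CPM in the 890 cells led by Ccl8 and C1qa. For Clec4n (496 and 507 CPM) and Mrc1 (364 and 345 CPM) the intervals of these clusters overlapped. A further 191 cells of the library, unnamed between microglia and tumour macrophage, had 383 CPM of Clec7a, 285 CPM of Clec4n and 186 CPM of Mrc1. The border macrophage markers summed to 926 CPM in tumour macrophage-like and 185 CPM in titled positive microglia-like cells. The tumour macrophage markers summed to 5276 CPM and 2281 CPM. Leading genes of the cluster of 203 cells held the border macrophage markers Ccl24 and Pf4 beside the tumour macrophage markers Arg1 and Mmp12. The part of border macrophages in these receptor levels was not tested.

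Monocyte-like cells of the same library had lower levels of the uptake receptors Mrc1 and Cd163 than tumour macrophage-like cells. Of 9 receptors counted, 1 was called higher in monocyte-like cells, against 1.93% of 11476 genes, and 3 lower, against 3.75%. Clec12a was higher, with 208 CPM in monocyte-like and 97.2 CPM in tumour macrophage-like cells (log2 ratio 1.10, 0.96 to 1.24). Mrc1 had 63.4 CPM in monocyte-like and 349 CPM in tumour macrophage-like cells (log2 ratio -2.46, -2.63 to -2.29). Cd163 rested on 1 UMI in monocyte-like and 110 UMIs in tumour macrophage-like cells (log2 ratio -5.57, -11.46 to -3.64), and Clec10a on 14 UMIs in monocyte-like and 50 UMIs in tumour macrophage-like cells (log2 ratio -1.17, -2.17 to -0.33). The direction of Clec10a did not hold: with each cell named by its own markers its log2 ratio was 0.12 (-0.77 to 1.11). Clec4a1, Clec4d, Clec4e, Clec4n and Clec7a differed by less than 2-fold, between -0.49 and 0.91 on the log2 scale.

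Neutrophil-like cells held Clec12a, Clec4d and Clec4e and little of the other receptors. Of 9 receptors counted, 1 was called higher than in tumour macrophage-like cells, against 7.89% of 10897 genes, and 6 lower, against 23.5%; the median log2 ratio of all these genes was -0.46. Clec12a had 230.5 CPM in neutrophil-like and 97.2 CPM in tumour macrophage-like cells, a log2 ratio of 1.25 (1.03 to 1.46). Clec4d (log2 ratio -0.59, -0.92 to -0.29) and Clec4e (0.50, 0.21 to 0.77) stayed within 2-fold. Clec4n, with 10.6 CPM in neutrophil-like and 505 CPM in tumour macrophage-like cells, had a log2 ratio of -5.51 (-6.58 to -4.73), and Mrc1, with 4.82 CPM in neutrophil-like and 349 CPM in tumour macrophage-like cells, one of -6.04 (-7.80 to -4.95). Cd163, with 0 UMIs in neutrophil-like cells, was at least 5.01-fold lower in them.

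Dendritic cell-like cells of the titled positive library had 1 receptor called higher than tumour macrophage-like cells, against 10.8% of 10792 genes, and 6 lower, against 6.42%, of 9 counted; the median log2 ratio of all these genes was 0.24. Clec10a was the higher one, with 39.6 CPM in dendritic cell-like and 6.59 CPM in tumour macrophage-like cells (log2 ratio 2.61, 1.74 to 3.37). Clec4a1, with 0 UMIs in dendritic cell-like cells, was at least 13.7-fold lower in them, and Mrc1 had a log2 ratio of -4.14 (-5.35 to -3.29). Clec4n, with a log2 ratio of -1.01 (-1.29 to -0.75), lay at the 2-fold limit, and Clec7a and Clec12a stayed within it. Clec4e was called lower at -1.17 (-1.98 to -0.54). With doublets kept, Clec4e had 49.1 CPM in dendritic cell-like and 82.8 CPM in tumour macrophage-like cells. Clec4n then had 353 CPM in dendritic cell-like and 503 CPM in tumour macrophage-like cells. Both receptors were then less than 2-fold apart, so neither was called.

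**Figure D3:**
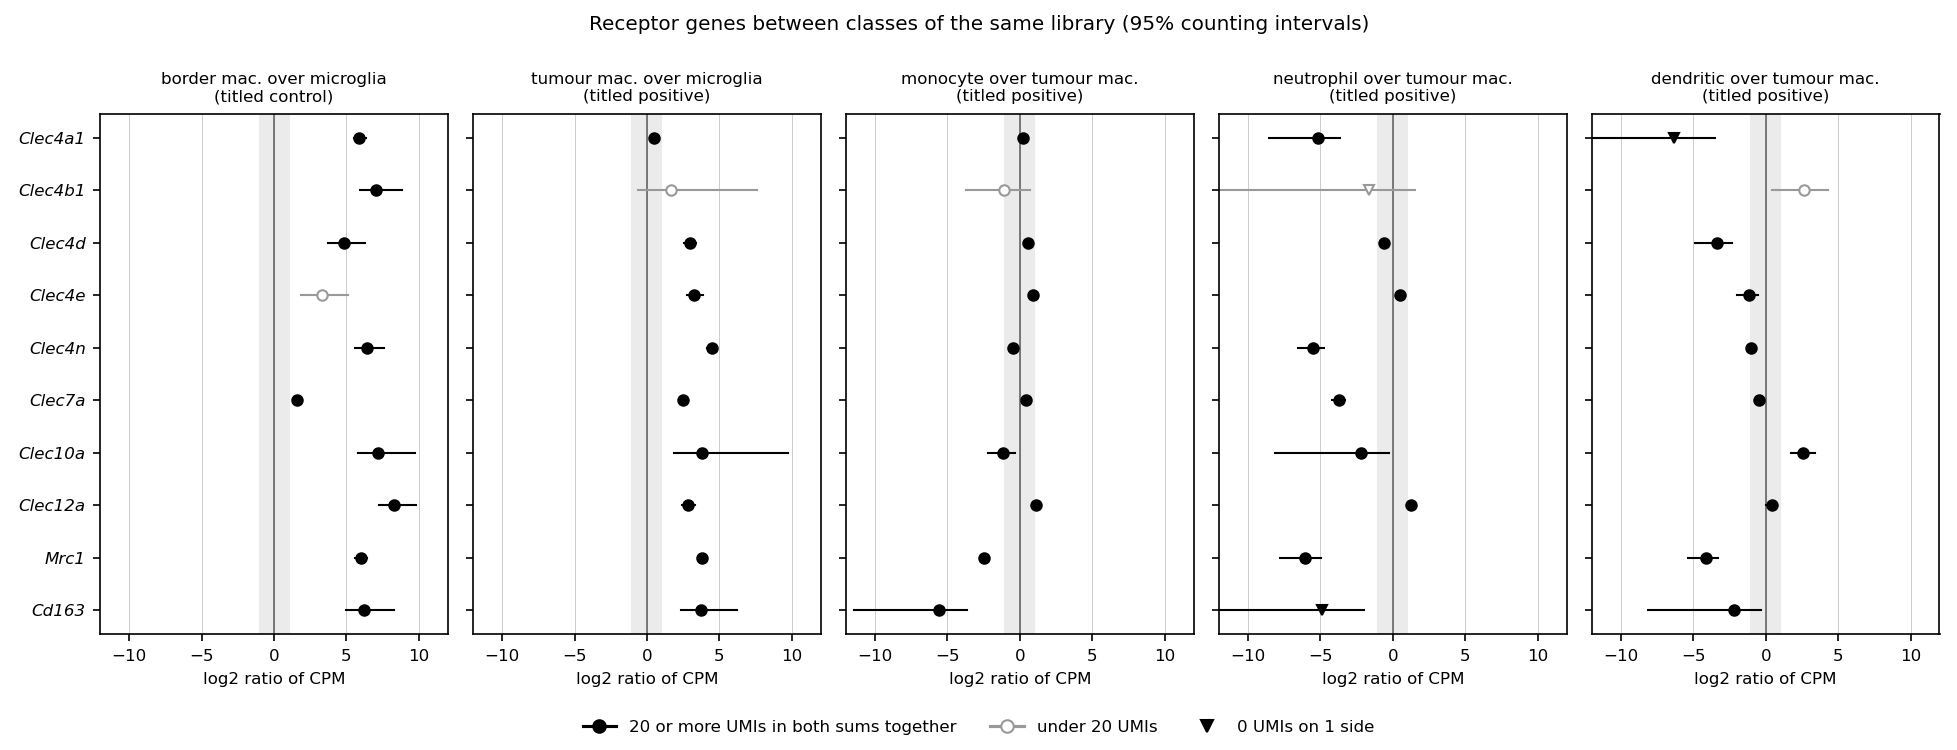
Log2 ratio of pooled CPM (x axis) of each receptor gene (rows) between classes of the same library, 1 panel per comparison, with conditional exact binomial 95% intervals; the grey band is 2-fold, open points had under 20 UMIs, and triangles had 0 UMIs on 1 side, where the point depends on the pseudocount of 0.5 counts. Every counted receptor lies right of the band in the first panel, while in the third panel Mrc1 (-2.46) and Cd163 (-5.57) lie left of it.

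Between libraries, the microglia-like cells of the titled positive library (cluster m15) had higher levels than those of the titled control library (clusters m0, m2 and m4) for 7 of 7 receptors counted, against 10.4% of 12076 genes, and lower for 0, against 24.4%; the median log2 ratio of all these genes was -0.38. Clec4a1 had 59.8 CPM in titled positive and 7.20 CPM in titled control cells, a log2 ratio of 3.04 (2.61 to 3.52). Clec7a had 105 CPM in titled positive and 40.4 CPM in titled control cells, a log2 ratio of 1.38 (1.15 to 1.61). Mrc1 had 24.7 CPM in titled positive and 7.87 CPM in titled control cells, a log2 ratio of 1.65 (1.14 to 2.16). At 1000 UMIs per cell, the shares of titled positive cells with Clec4a1 (3.97%), Clec7a (7.93%) and Mrc1 (2.76%) stood above the highest share among carcinoma-like, endothelial-like and oligodendrocyte-like cells of that library (0.356%, 1.43% and 0.831%). T or NK cell-like and fibroblast-like cells of that library reached higher shares, 1.03% for Clec4a1, 2.78% for Clec7a (72 fibroblast-like cells) and 1.71% for Mrc1. By pooled level, Clec4a1 and Clec7a in titled positive microglia-like cells stood clear of all these classes, at most 9.11 CPM of Clec4a1 in fibroblast-like and 36.3 CPM of Clec7a in T or NK cell-like cells. The 24.7 CPM (19.5 to 30.8) of Mrc1 overlapped the 18.4 CPM (13.1 to 25.0) of T or NK cell-like cells, so Mrc1 was not clear of background there. By share, the other 4 receptors did not stand above the carcinoma-like, endothelial-like and oligodendrocyte-like cells. Clec4d was in 1.90% of titled positive microglia-like cells and in up to 1.96% of those other cells. Clec4e was in 0.862% and up to 1.07%, Clec4n in 2.07% and up to 2.94%, and Clec12a in 1.72% and up to 1.96%. By pooled level, the 22.5 CPM (17.6 to 28.3) of Clec4n stood clear of carcinoma-like and oligodendrocyte-like cells, at most 12.4 CPM (9.4 to 16.2). It overlapped the 8.75 CPM (3.52 to 18.02) of endothelial-like and the 25.7 CPM (19.4 to 33.4) of T or NK cell-like cells. The pooled intervals of Clec4d, Clec4e and Clec12a overlapped those of endothelial-like cells. Clec4d, Clec4e, Clec4n and Clec12a are read as background in microglia-like cells, although their log2 ratios were between 3.38 and 4.16. The highest shares of Clec4d, Clec4n and Clec12a came from 102 endothelial-like cells with a median of 6016.5 UMIs, against a median of 4862.5 UMIs in titled positive microglia-like cells.

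The microglia-like classes of the libraries were also unlike in their markers. The 10 microglia markers summed to 1258 CPM in titled positive and 16340 CPM in titled control cells, with 0 of the 10 at 0 in either. The tumour macrophage markers summed to 2281 CPM in titled positive and 120 CPM in titled control cells, with Arg1, Gpnmb and Ccl8 at 0 in titled control cells, and the monocyte markers to 450 CPM in titled positive and 30.1 CPM in titled control cells. Carcinoma markers summed to 1183 CPM in titled positive and 1.87 CPM in titled control cells. The part of these cell types in the receptor levels was not tested. With finer clusters, which moved 120 border macrophage-like cells into titled control microglia-like cells and left the cluster of 429 cells with 151 CPM of Clec7a unnamed, the log2 ratio of Clec4a1 was 0.23 and that of Clec12a turned to -0.66. With cells named by their own markers, Clec4a1 had 1.26 and Clec7a 1.02.

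Titled positive monocyte-like cells (cluster m13) and titled control ones (cluster m5) were compared after their levels had been seen. Of 8 receptors counted, 3 were called higher in titled positive cells, against 8.13% of 9819 genes, and 2 lower, against 12.2%; the median log2 ratio of all these genes was -0.12. Clec4a1 had 101 CPM in titled positive and 698 CPM in titled control cells, a log2 ratio of -2.80 (-3.02 to -2.56). Clec4b1 rested on 3 UMIs in titled positive and 17 UMIs in titled control cells, a log2 ratio of -6.21 (-8.80 to -4.60). These 20 UMIs are the least that is counted, and the call was lost, leaving 1 receptor lower, with doublets kept, with finer clusters, with free RNA subtracted, with the mean of CPM per cell, after thinning and with a minimum of 100 UMIs. Clec7a (1.19, 0.93 to 1.49), Clec4n (1.10, 0.73 to 1.53) and Mrc1 (1.93, 0.83 to 3.70) had the log2 ratios called higher. Clec4d, Clec4e and Clec12a differed by less than 2-fold. The clusters differed in leading genes, Ly6c2, Ly6i, Chil3 and Ccr2 for titled positive cells and Plac8, Ear2 and Treml4 beside Ly6c2 for titled control cells, so a difference in kinds of monocyte and one in level per cell cannot be told apart.

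Dendritic cell-like cells were compared in the same way. Of 7 receptors counted, 1 was called higher in titled positive cells, against 15.1% of 5329 genes, and 5 lower, against 6.57%; the median log2 ratio of all these genes was 0.23. Clec4b1 had 8.33 CPM in titled positive and 372 CPM in titled control cells, a log2 ratio of -5.32 (-7.38 to -4.09). Clec4a1, at 0 UMIs in titled positive cells, was at least 19.3-fold lower than the 120.5 CPM of titled control cells. Mrc1 had 18.7 CPM in titled positive and 252 CPM in titled control cells, a log2 ratio of -3.68 (-4.92 to -2.76), and Clec10a one of -1.49 (-2.37 to -0.69). Clec7a was higher, with 410.2 CPM in titled positive and 147 CPM in titled control cells, a log2 ratio of 1.47 (1.04 to 1.94). The cells were again not alike: Cd209a had 18.7 CPM in titled positive and 2685 CPM in titled control cells, and Mgl2 185 CPM in titled positive and 2966 CPM in titled control cells. Of 9 border macrophage markers, 7 were at 0 in titled control dendritic cell-like cells, Pf4, Lyve1 and Folr2 among them. The whole list still summed to 149.9 CPM there. On the titled positive side 5 markers were at 0 and the list summed to 93.7 CPM. The part of border macrophages in these receptor levels was not tested. With finer clusters the 61 titled control cells fell into a cluster of 40 cells, then unnamed, with 482 CPM of Clec4b1, 368.5 CPM of Mrc1 and 165 CPM of Clec10a, and a dendritic cell-like cluster of 21 cells, with 135 CPM of Clec4b1 and 0 UMIs of Mrc1 and Clec10a.

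**Figure D4:**
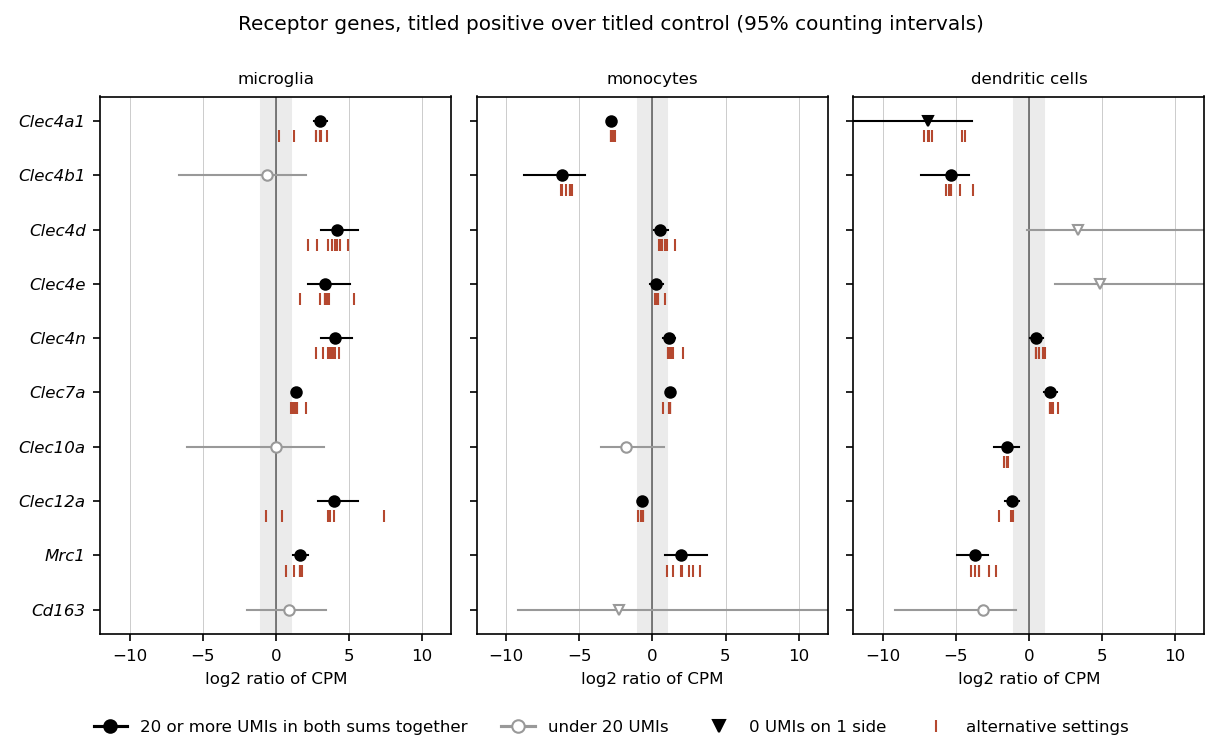
Log2 ratio of pooled CPM, titled positive over titled control (x axis), of each receptor gene (rows) in microglia-like, monocyte-like and dendritic cell-like cells, with conditional exact binomial 95% intervals; red ticks are the values under the alternative settings, the grey band is 2-fold, open points had under 20 UMIs, and triangles had 0 UMIs on 1 side. Clec4a1 and Clec4b1 lie left of the band in monocyte-like (-2.80 and -6.21) and dendritic cell-like cells, and the ticks of Clec4a1 and Clec12a in microglia-like cells spread into the band.

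Of the 12 signalling genes listed behind the receptors, 12 were counted in each fixed comparison. In titled positive over titled control microglia-like cells 0 were called higher, against 10.4% of all genes, and 2 lower (Syk and Card9), against 24.4%. Syk had 46.8 CPM in titled positive and 103 CPM in titled control cells. Fcer1g, the gamma chain, had 3032 CPM in titled positive and 1750.3 CPM in titled control microglia-like cells. In border macrophage-like over microglia-like cells 1 of 12 was called higher (Fcer1g, at 3970 CPM in border macrophage-like cells), against 9.25%, and 1 lower (Inpp5d), against 9.66%. In tumour macrophage-like over microglia-like cells 1 was higher (Malt1), against 5.85%, and 0 lower, against 5.63%, and in monocyte-like over tumour macrophage-like cells 0 were higher, against 1.93%, and 0 lower, against 3.75%. Neutrophil-like cells had 3 of 12 lower than tumour macrophage-like cells, against 23.5%, with Fcer1g at 1278 CPM in neutrophil-like and 3462 CPM in tumour macrophage-like cells, and dendritic cell-like cells had 2 lower (Fcer1g and Tyrobp), against 6.42%. In lists of this size 1 or 2 calls are near these shares, and no result about the list is read from them. The median log2 ratio of the list was between -0.45 and 0.06 over the fixed comparisons, beside medians of all genes between -0.46 and 0.24.

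Of 25 other C-type lectin genes listed, 24 were in the files. In border macrophage-like over microglia-like cells 14 were counted, with 10 higher, against 9.25% of all genes, and 1 lower, against 9.66%. Among the 10, Clec4a2 had 513 CPM in border macrophage-like and 197 CPM in microglia-like cells. Clec4a3 had 451 CPM in border macrophage-like and 107 CPM in microglia-like cells. Cd209f, also among the 10, had 48.8 CPM in border macrophage-like cells and 0 UMIs in microglia-like cells. It was a marker used to name border macrophage-like cells, so its direction was set by the naming. Between the microglia-like cells of the libraries, 2 of 9 counted were higher in titled positive cells (Clec2d and Cd69), against 10.4%, and 2 lower (Clec1b and Clec3b), against 24.4%. In tumour macrophage-like over microglia-like cells 5 of 12 were higher, against 5.85%, and in monocyte-like over tumour macrophage-like cells 0 of 12 were higher, against 1.93%, and 1 lower, against 3.75%. In neutrophil-like over tumour macrophage-like cells 1 of 12 was higher (Ly75), against 7.89%, and 7 lower, against 23.5%. In dendritic cell-like over tumour macrophage-like cells 5 of 12 were higher, Clec9a, Mgl2 and Ly75 among them, against 10.8%, and 4 lower, against 6.42%.

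Among the 10 scavenger receptors, Msr1 had 438 CPM in tumour macrophage-like cells, 242 CPM in titled positive and 3.87 CPM in titled control microglia-like cells. Stab1, itself a marker used to name border macrophage-like cells, had 414.5 CPM in them. Titled positive over titled control microglia-like cells had 2 of 7 counted higher (Msr1 and Cd36), against 10.4% of all genes, and 0 lower, against 24.4%. In the haem and iron route that follows uptake by Cd163, Hmox1, which opens the haem ring, had 73.9 CPM in monocyte-like and 177 CPM in tumour macrophage-like cells, and was the 1 of 8 called in monocyte-like over tumour macrophage-like cells, as lower, against 3.75%. Between the microglia-like cells of the libraries 2 of these 8 were higher in titled positive cells (Fth1 and Hp), against 10.4%, and 1 lower (Slc40a1, the iron exporter), against 24.4%. Of 10 cytokine genes known to lie downstream of these receptors, 5 of 8 counted were higher in titled positive than in titled control microglia-like cells (Il1b, Tnf, Il12b, Cxcl1 and Cxcl2), against 10.4%, and 1 lower (Il6), against 24.4%. In border macrophage-like over microglia-like cells 3 of 7 were higher, against 9.25%, and 1 lower, against 9.66%. In tumour macrophage-like over microglia-like cells 4 of 10 were higher, against 5.85%, and 3 lower (Tnf, Ccl3 and Ccl4), against 5.63%. In monocyte-like over tumour macrophage-like cells 1 of 10 was higher, against 1.93%, and 0 lower, against 3.75%. Neutrophil-like over tumour macrophage-like cells had 0 of 9 higher, against 7.89%, and 6 lower, against 23.5%. Dendritic cell-like over tumour macrophage-like cells had 1 of 10 higher, against 10.8%, and 4 lower, against 6.42%. Il1b had 547 CPM in titled positive and 209 CPM in titled control microglia-like cells, and 2686 CPM in titled positive monocyte-like cells. A link between the levels of these cytokines and of the receptors was not tested.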

How the data were processed

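Single cells of 2 mouse brain libraries were made with a microfluidic chip kit, per the labels' protocols. Matrices of UMI counts for each gene and barcode were deposited, produced by the authors with Cell Ranger on GRCm38, per the submitters' processing notes, which name no version. A barcode stayed in if it had 200 or more genes and no more than 20% of UMIs from mitochondrial genes. Scrublet was run on each library, and its calls (2.77% of barcodes, titled positive; 5.77%, titled control) were removed. Cells were clustered with scanpy 1.11.5 (2000 variable genes, receptors left out, 30 components, 15 neighbours, Leiden resolution 1), and the 6082 cells of myeloid clusters were clustered again into 16 clusters. A cluster took the class whose markers, scaled from 0 to 1 within the library, had the highest mean, if that mean was at least 0.5 and led by 0.1. A class was open in a library only if at least 66.7% of its markers reached 20 CPM in some myeloid cluster there. Border macrophage was not open in the titled positive library. Clusters of under 10 cells stayed unnamed.

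Members and lists were chosen with earlier results of these data known. The naming rule was revised after clusters and their receptor levels had been seen, since an earlier form left a titled control microglia-like cluster (m0, 944 cells) and a tumour macrophage-like cluster (m14, 890 cells) unnamed. Clusters m0, m4 and m15 have 0 microglia markers among their 10 leading genes. Names rebuilt here may differ from the study's.

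UMIs were summed per class and library. Intervals are exact Poisson (CPM), Clopper-Pearson (shares) and conditional binomial (log2 ratios, pseudocount 0.5 counts), at 95%. A count of 0 allows 3 counts. All 10 receptors are described; for each, the 3 genes most like it were ranked among 11836 genes with at least 200 UMIs, of which the first or all are named. In all, 8 alternatives were tried, and the comparisons of monocyte-like and dendritic cell-like cells between libraries were added after values were seen. Ratio code was tested on simulated data. Loci are from GENCODE (GRCm38) and promoter sequences from RefSeq (GRCm38.p6).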

Additional observations from a re-analysis of the deposited data

Results flagged for a closer look

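Of 30 contrasts between classes that both libraries hold, 2 had opposite directions with both counting intervals clear of no difference. Other contrasts also had opposite signs, but with an interval that included no difference in at least 1 library. Mrc1 in dendritic cell-like over microglia-like cells was among them, at -0.33 (-1.58 to 0.60) titled positive and 4.99 titled control. Differences between libraries were not tested, and the 2 clear contrasts follow. Clec4a1 in dendritic cell-like over microglia-like cells had a log2 ratio of -5.85 in the titled positive library and 4.07 (3.46 to 4.66) in the titled control library. The first rests on 0 UMIs in 96 dendritic cell-like cells and depends on the pseudocount; the level in titled positive microglia-like cells was 59.8 CPM, against a limit of 6.25 CPM in the dendritic cell-like cells. Mrc1 in monocyte-like over dendritic cell-like cells had a log2 ratio of 1.68 (0.82 to 2.90) in the titled positive library and -3.93 (-5.71 to -2.78) in the titled control library. It rests on 9 UMIs in titled positive dendritic cell-like cells and 5 UMIs in titled control monocyte-like cells. The level of the former, 18.7 CPM (8.57 to 35.6), overlapped the 18.4 CPM (13.1 to 25.0) of titled positive T or NK cell-like cells. Mrc1 was thus not clear of background in titled positive dendritic cell-like cells.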

How the results depend on the processing

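No paired analysis was possible because each group holds 1 library, and no replicate could be left out. Of 496 ratios of single receptors recomputed, 412 moved by less than their counting interval and 82 moved further. The other 2 had been called in the main setting and turned sign. Clec12a did so in microglia-like cells between libraries (-0.66 at Leiden resolution 2). Clec10a did so in monocyte-like over tumour macrophage-like cells (0.12 with each cell named by its own markers). Sign changes of ratios not called in the main setting were not counted apart and fall among the 412 or the 82. Of 118 counts of receptors called, 98 stayed within 1.5 times. Single calls could still be lost within that limit, as with doublets kept for Clec4e and Clec4n in dendritic cell-like over tumour macrophage-like cells. Thinning to 1000 UMIs per cell leaves fewer UMIs; it gave 3 receptors higher in microglia-like cells between libraries, 0 higher in monocyte-like, neutrophil-like and dendritic cell-like over tumour macrophage-like cells, 3 lower in the last of these, and 1 and 2 lower in monocyte-like and dendritic cell-like cells between libraries. With each cell named by its own markers, 2 were higher in microglia-like cells between libraries and 2 in monocyte-like over tumour macrophage-like cells, and Leiden resolution 2 also gave 2 there. Counting genes with at least 100 UMIs, which tests fewer receptors, gave 3 higher in microglia-like cells between libraries, 0 higher in dendritic cell-like over tumour macrophage-like cells, and 1 and 3 lower in monocyte-like and dendritic cell-like cells between libraries. A pseudocount of 3 gave 3 lower in dendritic cell-like over tumour macrophage-like cells. Free RNA subtracted at 10%, the mean of CPM per cell, doublets kept and resolution 2 each gave 1 lower in monocyte-like cells between libraries, and doublets kept gave 3 higher in dendritic cell-like cells between libraries; the cause was not tested. Named by their own markers, border macrophage-like, dendritic cell-like and titled control monocyte-like cells numbered under 50 and gave no value, as did titled control dendritic cell-like cells at resolution 2. Depth limits the dendritic cell-like and titled control monocyte-like sums most.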
